A study of Mus musculus with 3 samples.

Results

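The genes described here are 10 members of the Notch pathway and of the factors that set secretory cell fate in the gut: the receptor Notch1, the ligands Dll1 and Dll4, the Notch target Hes1, and the transcription factors Atoh1, Gfi1, Spdef, Bhlha15, Sox4 and Neurog3. They were chosen by name and make up 10 of the 13891 genes in the table of small intestinal single cells. All 10 have a row. The cells came from male ICR mice. Mice of the AOS 0 group received water by gavage and no busulfan, mice of the B + A 0 group received 1 injection of busulfan (40 mg per kg body weight) followed by water, and mice of the B + A 10 group received the same injection followed by 10 mg per kg of AOS, alginate oligosaccharide, by daily gavage for 2 weeks. Injections were given at 3 weeks of age. Busulfan is an alkylating drug that damages the gut lining. Each group is 1 library made from the combined cells of 6 mice, so no comparison between groups has a replicate and none was tested. The field that names the source tissue gives other group names for the B + A 0 and B + A 10 samples than their titles and treatment fields do; the titles were followed.

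Notch signalling passes between neighbouring cells. A Delta-type ligand on one cell binds a Notch receptor on the next, the receptor is cut, and its inner part enters the nucleus, joins the DNA-binding protein RBPJ and switches on genes such as Hes1, a repressor of Atoh1. In the intestinal crypt, cells that receive the signal remain stem cells or become absorptive enterocytes, and cells that escape it turn on Atoh1 and become goblet, Paneth or enteroendocrine cells. Downstream of Atoh1, Gfi1 and Spdef act in goblet and Paneth cells, Bhlha15 (also called Mist1) acts in cells with a large secretory apparatus, and Neurog3 starts the endocrine programme. On the mouse genome GRCm38 (GENCODE vM21) Notch1 lies at chr2:26457903-26516663, Dll1 at chr17:15367354-15376872, Dll4 at chr2:119325784-119335962, Hes1 at chr16:30064384-30067796 and Atoh1 at chr6:64729125-64731245. Spdef lies at chr17:27714352-27728955, Gfi1 at chr5:107716657-107726036, Bhlha15 at chr5:144190286-144194441, Sox4 at chr13:28948919-28953713 and Neurog3 at chr10:62133090-62134763.

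The stretches in front of the genes' start sites are shown with short sequences that 2 DNA-binding factors recognise: RBPJ, which carries the Notch signal, and Atoh1, which binds E-boxes. RefSeq promoter sequences (GRCm38.p6) were found for 9 of the 10 genes; Hes1 was not among them. The 250 bases before each start were searched on both strands for the RBPJ core TGGGAA, which is read on the opposite strand as TTCCCA, and for the E-box CAGCTG, which reads the same on both strands and does not overlap the first. The RBPJ core stood in 21.6% of all 32851 promoter stretches of that length, the E-box in 13% and both in 3.01%. Spdef had the RBPJ core, with its first base 22 bases before the start. Sox4 had both, the RBPJ core at 100 bases and the E-box at 211 bases. Neurog3 had an E-box at 165 bases, and 1 of the 2 Dll1 starts had an E-box at 132 bases. No match stood in the stretches of Atoh1, Dll4, Notch1, Gfi1 or Bhlha15. A match is only a run of letters, and no binding was measured. The 3 printed genes with a match and Atoh1, the factor the other secretory genes depend on, lie at chr6:64728875-64729124 on the plus strand (Atoh1), chr17:27728952-27729201 on the minus strand (Spdef), chr13:28953700-28953949 on the minus strand (Sox4) and chr10:62132840-62133089 on the plus strand (Neurog3). They are written 5′ to 3′ on the gene's strand, with the matches in capitals.
Atoh1: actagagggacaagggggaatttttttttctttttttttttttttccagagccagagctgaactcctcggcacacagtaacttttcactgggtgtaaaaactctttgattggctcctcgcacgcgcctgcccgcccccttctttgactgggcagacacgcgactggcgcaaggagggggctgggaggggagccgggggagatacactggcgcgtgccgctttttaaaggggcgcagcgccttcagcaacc
Spdef: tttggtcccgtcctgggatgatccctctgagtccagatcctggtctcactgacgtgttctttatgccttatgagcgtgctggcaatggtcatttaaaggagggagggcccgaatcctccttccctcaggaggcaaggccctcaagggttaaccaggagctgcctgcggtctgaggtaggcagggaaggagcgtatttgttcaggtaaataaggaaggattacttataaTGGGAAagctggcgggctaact
Sox4: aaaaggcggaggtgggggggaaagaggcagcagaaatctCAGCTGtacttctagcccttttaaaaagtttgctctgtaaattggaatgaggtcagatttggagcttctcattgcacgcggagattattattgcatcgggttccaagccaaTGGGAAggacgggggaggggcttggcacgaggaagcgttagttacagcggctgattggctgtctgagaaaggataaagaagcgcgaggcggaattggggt
Neurog3: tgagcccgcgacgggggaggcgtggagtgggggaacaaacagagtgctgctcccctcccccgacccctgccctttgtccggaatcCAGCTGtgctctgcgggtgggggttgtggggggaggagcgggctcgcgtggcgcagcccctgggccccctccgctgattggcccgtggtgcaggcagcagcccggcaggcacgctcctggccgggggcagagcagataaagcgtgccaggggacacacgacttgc

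The libraries held 4106 cells (AOS 0), 3195 cells (B + A 0) and 5352 cells (B + A 10), with 23003083 to 35258551 UMIs, the molecule tags by which transcripts were counted. The B + A 10 library was the shallowest, with a median of 3505 UMIs per cell against 7371 in AOS 0 and 6407 in B + A 0. Cells were clustered without the 10 genes and without 64 further Notch and fate genes, and clusters were named from markers. This gave 926 stem-like cells, 394 cycling secretory-like cells (Reg4 and Ccl9 together with mitotic genes), 2034 goblet-like, 433 Paneth-like, 149 enteroendocrine-like and 822 early enterocyte-like cells. Among these 6 classes each marker list stood highest in its own class for nearly all genes: 11 of 11 in stem-like, 8 of 8 in cycling secretory-like, 12 of 14 in goblet-like, 16 of 16 in Paneth-like, 16 of 16 in enteroendocrine-like and 10 of 10 in early enterocyte-like cells. The same lists named the clusters, so these counts describe the classes and do not test their names. Reg4 and Ccl9 stand on both the goblet and the cycling secretory list. A further 2375 cycling crypt cells, 4646 later enterocytes and 315 T cells served as reference. These were left out of the marker counts. Later enterocytes had more Plac8 (129 against 82.0), Ccl25 (8.66 against 6.26) and Ms4a18 (3.09 against 1.85) per 10000 UMIs than early enterocyte-like cells. They had less of the other early enterocyte markers. Of the cycling secretory-like cells, 25.9% were called doublets, against 0.49% to 5.37% in the other 5 classes, and their ratios to stem-like cells are also given without called doublets. Only 82 barcodes occurred in 2 libraries, 17 of them in the same class. Levels are UMIs of a gene per 10000 UMIs, summed over the cells of a class. Where 3 values stand together they belong to AOS 0, then B + A 0, then B + A 10. Brackets after a level or ratio give exact 95% intervals that cover counting error only.

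Set against stem-like cells, 9 of the 10 genes fell into 2 opposite groups in cycling secretory-like and goblet-like cells, but not in every secretory class. Atoh1, Dll1, Dll4, Gfi1, Spdef and Bhlha15 were each at least 2-fold higher (no test, since the cells of a class come from 1 library per group) in cycling secretory-like and in goblet-like cells than in stem-like cells, and Hes1, Notch1 and Sox4 were at least 2-fold lower in both. Of the 9 genes with at least 30 UMIs in the pair, 6 were higher and 3 lower in cycling secretory-like cells, where 5.96% of all genes were higher and 4.78% lower. In goblet-like cells, 6 were higher and 4 lower of 10, Neurog3 being the fourth, against 9.27% higher and 41.1% lower among all genes. Paneth-like cells had 3 of 8 genes higher (Atoh1, Spdef and Bhlha15; background 2.06%) and 4 lower (Hes1, Dll1, Notch1 and Sox4; background 84.2%). Enteroendocrine-like cells had Dll4 and Neurog3 higher (background 9.91%) and Hes1, Dll1 and Notch1 lower (background 9.07%) of 8. In early enterocyte-like cells none of 6 genes was 2-fold higher (background 11.1%) and 5 were lower (background 16.5%): Atoh1, Hes1, Notch1, Spdef and Sox4. Without called doublets the log2 ratios of cycling secretory-like over stem-like cells were 4.47 for Atoh1, 2.14 for Dll1, 2.42 for Dll4, 4.12 for Spdef and 4.62 for Bhlha15, and -1.36 for Hes1, -1.92 for Notch1 and -2.13 for Sox4, each in the direction found with all cells.

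The lower calls in Paneth-like cells need a second scale. Defensin genes held 59.1% of all UMIs there, against 0.48% in stem-like cells, and the median gene was lower by 1.93 on the log2 scale. Measured relative to the median gene, 4 of the 8 genes were 2-fold higher and 3 lower in Paneth-like cells, beside 14.3% and 8.19% of all genes, and Dll1 moved from 0.351 of its stem-like level to 1.34 times it. In goblet-like cells, where the median gene was at -0.76, 6 genes were higher and 3 lower relative to the median gene, beside 19.8% and 18.1% of all genes.

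**Figure D1:**
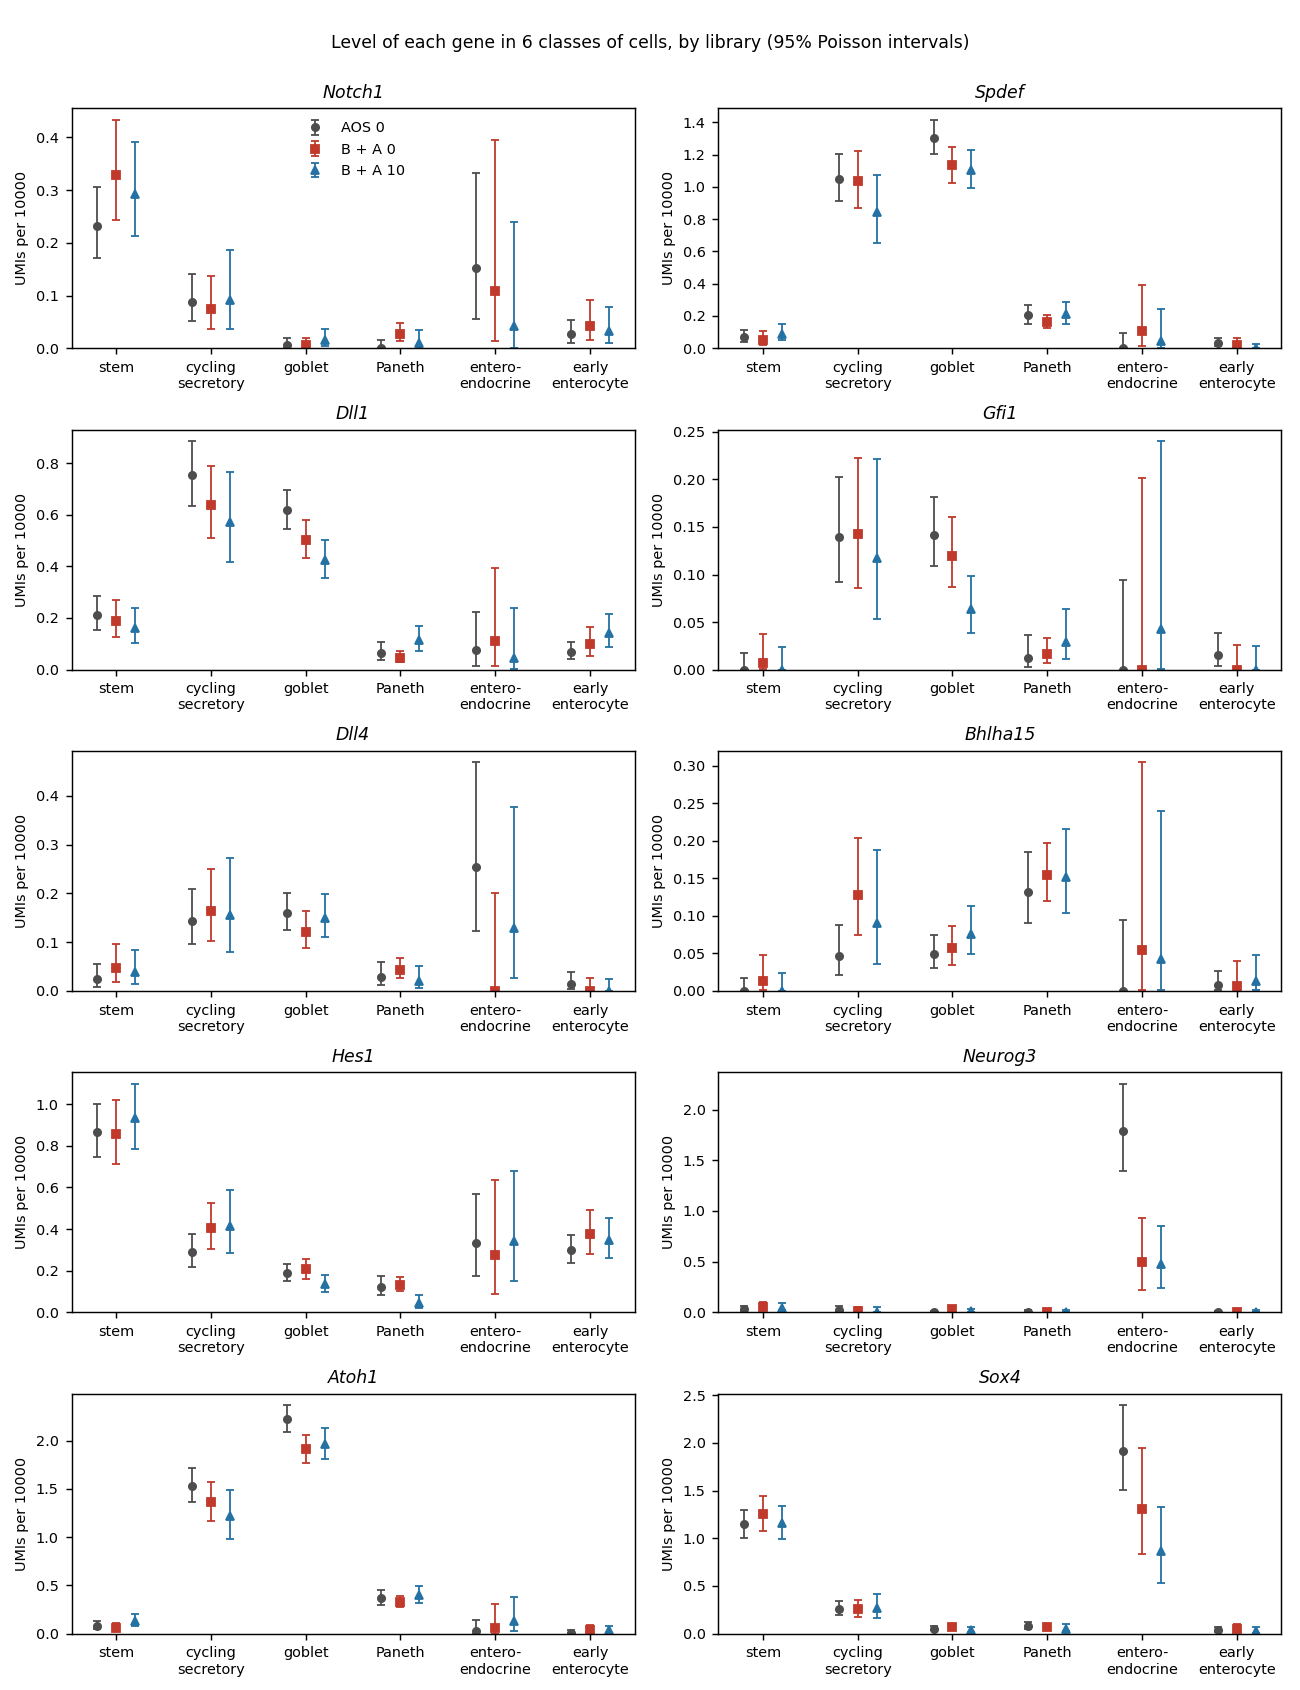
Level of each of the 10 genes (UMIs per 10000 UMIs, separate axis for each gene) in the 6 classes of cells, with a point for each of the 3 libraries and an exact 95% Poisson interval around it. Atoh1 and Spdef stand highest in goblet-like cells, Hes1 and Notch1 in stem-like cells, Neurog3 in enteroendocrine-like cells and Bhlha15 in Paneth-like cells.

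Notch1, the receptor, was a gene of stem-like cells. Its level there was 0.231, 0.328 and 0.292, against 0.0876, 0.0749 and 0.0909 in cycling secretory-like cells. The lowest stem-like library thus stood above the highest cycling secretory-like library, and the ratio of the summed levels was 3.30 (2.26 to 4.95). In goblet-like cells only 10 UMIs were counted over the 3 libraries, a level of 0.00887 (0.00425 to 0.0163), and later enterocytes had 0.00884. Cycling crypt cells, the most numerous dividing cells, held 57.0% of all Notch1 UMIs and stem-like cells a further 21.2%. The S phase cluster of the cycling crypt cells, described further on, had 0.266, or 0.959 of the stem-like level (0.787 to 1.17). T cells, in which Notch1 is also known to act, had 0.145. The enteroendocrine-like level of 0.111 rests on 9 UMIs, and its libraries, between 0.0431 and 0.153, overlapped those of cycling secretory-like cells.

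Dll1, the Delta ligand of secretory progenitors, was highest in cycling secretory-like cells among the 6 classes. The levels there were 0.753, 0.637 and 0.571, and in stem-like cells 0.212, 0.187 and 0.162. Every cycling secretory-like library was above every stem-like library, by 3.55, 3.4 and 3.53 times within the libraries and by 3.58 times in sum (2.83 to 4.57). Goblet-like cells came second with 0.617, 0.501 and 0.424, and their libraries overlapped those of cycling secretory-like cells, although the summed levels differed by 1.29 times (1.12 to 1.5). This order holds for goblet-like cells taken as one class: their Ccl9-led cluster had more Dll1 than cycling secretory-like cells, 0.878 against 0.680 in sum. Early enterocyte-like cells (0.0952), enteroendocrine-like cells (0.0743) and Paneth-like cells (0.0666) had less than stem-like cells per 10000 UMIs, though Paneth-like cells, the deepest class, had 13.6 Dll1 UMIs per 100 cells against 10.5 in stem-like cells.

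Dll4, the other Delta ligand of the crypt, was counted more rarely. Cycling secretory-like cells had 0.144, 0.165 and 0.156 and goblet-like cells 0.160, 0.122 and 0.150. These ranges overlap, and both classes stood above the stem-like sum of 0.0352, by 4.35 times (2.54 to 7.82) and 4.11 times (2.52 to 7.11). The enteroendocrine-like level of 0.161 (0.0857 to 0.275) came from 13 UMIs, none of them in B + A 0. Its sum was 2-fold above that of stem-like cells only with AOS 0 (10 of the UMIs), without which the log2 ratio fell from 2.19 to 0.76. Later enterocytes had 0.0497, and the goblet-like level was 2.91 times theirs (2.28 to 3.72).

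Hes1, the repressor that Notch switches on, was highest in stem-like cells. The level was 0.867, 0.856 and 0.933, against 0.189, 0.206 and 0.134 in goblet-like cells. The libraries of the 2 classes lay far apart, and the ratio was 4.58, 4.16 and 6.98 within libraries and 4.93 in sum (4.17 to 5.85). Cycling secretory-like cells had 0.289, 0.404 and 0.416, early enterocyte-like cells 0.298, 0.375 and 0.347, and enteroendocrine-like cells 0.331, 0.273 and 0.345. These 3 classes overlapped in their libraries, and the stem-like level was 2.52 to 2.74 times theirs. Goblet-like cells were below them, and cycling secretory-like cells had 1.96 times the goblet-like level (1.57 to 2.44). Paneth-like cells had the least per 10000 UMIs, 0.110 in sum. Per cell and relative to the median gene goblet-like cells were lowest of the 6 classes: they had 9.93 Hes1 UMIs per 100 cells against 22.4 in Paneth-like cells, and relative to the median gene 0.344 of the stem-like level against 0.473. After stem-like cells the highest level per 10000 UMIs was in cycling crypt cells, 0.615, which held 43.4% of all Hes1 UMIs.

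Atoh1, the factor that starts the secretory programme, was high in goblet-like and cycling secretory-like cells and low elsewhere. In goblet-like cells it was 2.23, 1.91 and 1.97, and in cycling secretory-like cells 1.54, 1.36 and 1.22. In Paneth-like cells it was 0.370, 0.331 and 0.402, and in stem-like cells 0.0818, 0.0602 and 0.130. No library of any of these 4 classes overlapped those of the next, so the order goblet-like, cycling secretory-like, Paneth-like and stem-like was the same in all 3. Per cell the first 2 changed places, with 197, 146 and 79.7 Atoh1 UMIs per 100 cycling secretory-like cells against 165, 120 and 73.0 per 100 goblet-like cells. Cycling secretory-like cells had 15.8 times the stem-like level (11.7 to 21.8), with 18.8, 22.6 and 9.42 within the libraries. Goblet-like cells had 1.45 times the cycling secretory-like level (1.32 to 1.59). The Paneth-like level stands on the scale that defensins lower. Per 100 cells Paneth-like cells had 73.2 Atoh1 UMIs in sum, against 114 in goblet-like and 146 in cycling secretory-like cells. Relative to the median gene they had 15.2 times the stem-like level, against 17.3 in cycling secretory-like and 38.7 in goblet-like cells. Goblet-like cells held 60.4% and cycling secretory-like cells 15.0% of all Atoh1 UMIs, and enteroendocrine-like cells had 5 UMIs, with libraries that overlapped those of stem-like cells. Early enterocyte-like cells had 14, and their libraries, between 0.0113 and 0.0424, lay below all 3 stem-like libraries.

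Spdef, a factor of goblet and Paneth maturation, followed Atoh1. Its level was 1.31, 1.13 and 1.10 in goblet-like cells and 1.05, 1.03 and 0.844 in cycling secretory-like cells. The cycling secretory-like level was thus 0.843 of the goblet-like level (0.753 to 0.943), a smaller step than for Atoh1. Per cell the direction turned in all 3 libraries, with 135, 110 and 55.1 Spdef UMIs per 100 cycling secretory-like cells against 96.8, 71.1 and 41.0 per 100 goblet-like cells. Paneth-like cells had 0.205, 0.162 and 0.211, below both, and stem-like cells 0.0704 in sum from 36 UMIs. Gfi1, a zinc finger repressor that acts with Atoh1, was counted 271 times in all. It had 0.139, 0.142 and 0.117 in cycling secretory-like cells and 0.142, 0.119 and 0.0637 in goblet-like cells, and a single UMI in all stem-like cells. Cycling secretory-like cells had 7.53 times the Paneth-like level of Gfi1 (4.25 to 14.1). T cells, which use Gfi1 in their own development, had 0.0624, 0.0982 and 0.185, from 4, 4 and 10 UMIs. They were thus below goblet-like cells in AOS 0 and B + A 0 (ratios 0.440 and 0.823) and above them in B + A 10 (2.90).

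Bhlha15, a factor of cells that build up secretory granules, was the one gene of the 10 whose highest level by class was in Paneth-like cells. There it was 0.131, 0.155 and 0.152, against 0.0495, 0.0569 and 0.0764 in goblet-like cells. The Paneth-like libraries stood above those of the other 5 classes, by 2.49 times over goblet-like cells (1.84 to 3.39), even though the defensin share lowers other genes there. The goblet-like sum hides a spread, since 1 of its 3 clusters, led by Ccl9 and described further on, had 0.155, 0.137 and 0.194, a range that overlaps the Paneth-like one, and another had no UMI. Paneth-like cells, 3.42% of the cells, held 48.0% of all Bhlha15 UMIs. Stem-like cells had 2 UMIs.

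Sox4, which takes part in the first steps toward endocrine and tuft cells, was shared by enteroendocrine-like and stem-like cells. In enteroendocrine-like cells it was 1.91, 1.31 and 0.862, and in stem-like cells 1.15, 1.25 and 1.16. The ranges overlapped and the direction differed between libraries (ratios 1.67, 1.05 and 0.743), so the summed ratio of 1.25 (1.02 to 1.52) is decided by AOS 0, without which its log2 value is -0.18. Stem-like cells had 4.51 times the cycling secretory-like level (3.66 to 5.59), and goblet-like cells only 0.0559. Neurog3, the endocrine starter, was 1.78, 0.492 and 0.474 in enteroendocrine-like cells, from 70, 9 and 11 UMIs. Stem-like cells had 0.0411 in sum, 27.2 times less (16.7 to 46.0). AOS 0 sets the size of this gap, which was 61.8, 9.19 and 10.5 times within the libraries and fell from 4.76 to 3.29 on the log2 scale without AOS 0. No Neurog3 UMI was found in 822 early enterocyte-like cells, a count that allows a level of up to 0.00539. Enteroendocrine-like cells held 44.3% of all Neurog3 UMIs and cycling crypt cells 17.7%.

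RNA that leaks from broken cells can place UMIs in cells that do not make the transcript, so Atoh1 was set beside the goblet mucin Muc2. After each cell was thinned to 1000 UMIs, an Atoh1 UMI was found in 18.3% of goblet-like cells (median depth 5162 UMIs before thinning), 11.2% of cycling secretory-like cells (9588), 4.62% of Paneth-like cells (17432) and 0.54% of stem-like cells (4945). Later enterocytes, which should lack Atoh1, had 0.495% (4423). The stem-like share was thus close to that of later enterocytes, while the later enterocyte level over all UMIs was 0.478 of the stem-like level (0.334 to 0.692). Per 100 Muc2 UMIs, Atoh1 had 2.06 UMIs in goblet-like cells (1.97 to 2.14), 1.78 in later enterocytes (1.45 to 2.16) and 2.11 in T cells (1.05 to 3.80). The intervals of these 3 classes overlapped. Stem-like cells had 5.83 (4.23 to 7.85), cycling secretory-like cells 5.50 (5.04 to 5.98), Paneth-like cells 4.33 (3.86 to 4.84) and cycling crypt cells 3.13 (2.57 to 3.78), all above the goblet-like ratio. For Spdef the values were 1.20 in goblet-like cells, 1.27 in later enterocytes, 1.34 in T cells, 4.56 in stem-like cells and 3.90 in cycling secretory-like cells. Dll1 behaved otherwise: 0.527 per 100 Muc2 UMIs in goblet-like cells, but 8.48 in later enterocytes and 12.3 in stem-like cells.

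**Figure D2:**
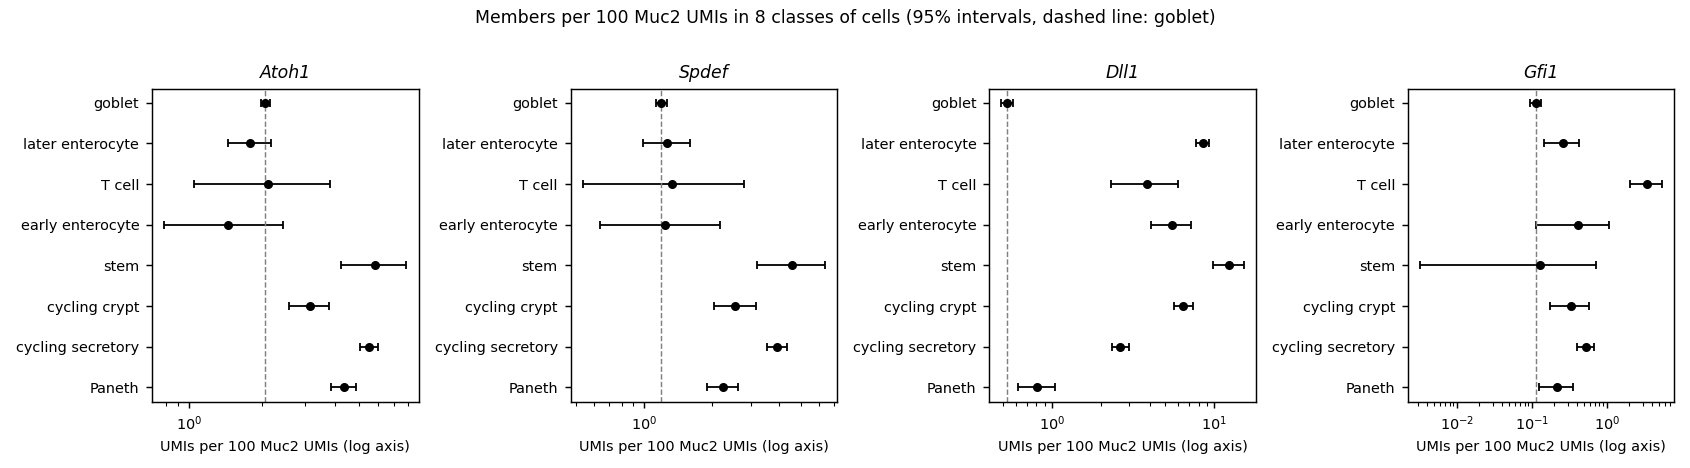
UMIs of Atoh1, Spdef, Dll1 and Gfi1 per 100 Muc2 UMIs in 8 classes of cells, with 95% intervals on a log axis and a dashed line at the goblet-like value. For Atoh1 and Spdef later enterocytes and T cells lie at the goblet-like line and stem-like and cycling secretory-like cells above it, while Dll1 lies above it in every other class drawn.

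The dividing crypt cells formed 2 clusters that differed in these genes. The cluster in S phase had Hes1 at 0.693, Notch1 at 0.266 and Sox4 at 0.851. These are 0.784 (0.700 to 0.880), 0.959 (0.787 to 1.17) and 0.720 (0.652 to 0.797) of the stem-like levels. The mitotic cluster had Hes1 at 0.462 and Notch1 at 0.0550, or 0.522 (0.450 to 0.606) and 0.198 (0.134 to 0.287) of stem-like cells. Sox4 was lower still: 0.0592, 0.0765 and 0.0794, 0.0582 of stem-like cells in sum (0.0420 to 0.0789). Neurog3 had 36 UMIs in the S phase cluster and 0 in the mitotic cluster. Of the 3 genes, Hes1 thus differed least between mitotic and stem-like cells. The 2 clusters also differed in cell type markers. The mean standardised level of the stem markers was 1.92 in the S phase cluster and 0.0002 in the mitotic cluster. That of the early enterocyte markers was 0.130 and 0.917, so cell cycle phase and cell identity cannot be told apart here.

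Within the crypt, cells with an Atoh1 UMI carried more of the ligands. Of 3301 stem-like and cycling crypt cells, 129 had an Atoh1 UMI (46, 47 and 36). Their Dll1 level was 0.506, 0.454 and 0.211 in the 3 libraries, against 0.112, 0.120 and 0.113 in cells without one. AOS 0 and B + A 0 showed clear gaps of 4.53 times (2.96 to 6.75) and 3.79 times (2.31 to 6.01), and B + A 10, with 4 UMIs, one of 1.87 times whose interval reached from 0.497 to 5.0. In sum Dll1 was 3.89 times higher (2.89 to 5.15), Dll4 4.10 times (2.17 to 7.30), Spdef 9.63 times (6.55 to 14) and Neurog3 5.01 times (2.48 to 9.47). Hes1 and Notch1 did not separate the cells: the ratios were 0.930 (0.740 to 1.16) and 1.25 (0.866 to 1.76). The stem marker Lgr5 was at 0.595 (0.350 to 0.95), and the goblet genes Muc2 and Tff3 were 4.05 and 4.20 times higher (3.48 and 3.48 without called doublets). Cells with an Atoh1 UMI were deeper (median 8768 against 6255 UMIs) and more often called doublets (8.53% against 2.81%); without called doublets the ratio of Dll1 was 4.17 (3.07 to 5.56).

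Crypt cells with a Neurog3 UMI were fewer, and Sox4 was 7.30 times higher in them. There were 20 such cells (5, 11 and 4), none of them called a doublet, with a median of 13353 UMIs against 6311. Sox4 was 5.55, 4.30 and 5.76 in them and 0.670, 0.726 and 0.602 in the others. All 3 libraries thus showed the gap (interval of the sum 6.05 to 8.75). The cells without Neurog3 include the whole mitotic cluster, which had 0 Neurog3 UMIs and Sox4 at only 0.0688 in sum. This lowers the Sox4 level of the cells without Neurog3, and the ratio was not taken without that cluster. Dll1 was 6.69 times higher (4.13 to 10.3), with 15 of its 22 UMIs in the 5 cells of AOS 0 and a ratio of 1.85 (0.495 to 4.89) in B + A 0. Atoh1 was 4.95 times higher (2.10 to 10.0), and Neurod1, a later endocrine factor, had 7 UMIs in these 20 cells and 12 in the other 3281. Chgb, a marker of finished endocrine cells, had none. Hes1 had a ratio of 1.19 (0.737 to 1.83).

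Among the enteroendocrine-like cells, those with a Neurog3 UMI had few hormone UMIs. Neurog3 was found in 22 of 149 cells, 14 of 66 (21.2%) in AOS 0, 2 of 28 (7.14%) in B + A 0 and 6 of 55 (10.9%) in B + A 10, and 53 of the 90 UMIs were in 5 cells. In stem-like cells, of like median depth (4945 against 4458 UMIs), the share was 0.648%. Sox4 was 6.23, 10.5 and 3.39 in cells with Neurog3 and 0.963, 0.589 and 0.576 in those without. The groups were apart in every library, by 8.10 times in sum (5.56 to 11.9). Early endocrine factors went along: Neurod1 was 2.02 times higher (1.5 to 2.69), Insm1 2.40 (1.77 to 3.22), Fev 2.34 (1.46 to 3.64), Pax4 5.58 (1.55 to 19.4) and Hes6 2.62 (1.61 to 4.16). Late genes were lower, with Isl1 at 0.434 (0.212 to 0.797), Cpe at 0.136 (0.0673 to 0.245) and Pax6 with 0 against 68 UMIs. Of the hormones, Gip had 3 UMIs in cells with Neurog3 and 65036 in those without, Cck 5 and 13614, and Gcg 0 and 4357. Chga, the general endocrine granule protein, had a ratio whose interval held 1 (1.20, 0.901 to 1.58), and Atoh1 had 0 and 5 UMIs.

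**Figure D3:**
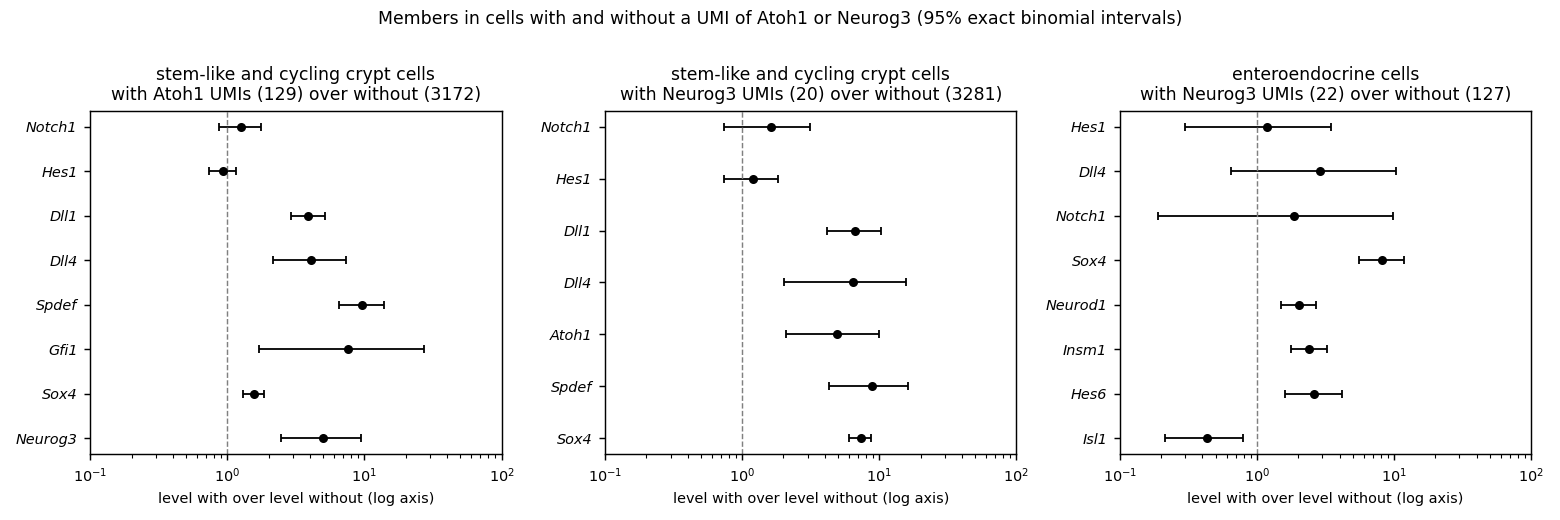
Ratio of levels, with exact 95% intervals on a log axis, between cells with and without an Atoh1 UMI or a Neurog3 UMI, in crypt cells and in enteroendocrine-like cells. Dll1 and Spdef lie above 1 for both splits of the crypt cells and Hes1 at 1, and Sox4 lies far above 1 for both Neurog3 splits.

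Goblet-like cells fell into 3 clusters, and the genes were unevenly spread over them. One cluster (539 cells) was led by Ccl9, Agr2 and Reg4, genes of the crypt goblet cell, one (763 cells) by Ido1 and Clca1, and one (732 cells) by the haemoglobin genes Hbb-b1 and Hba-a1 and by Klk1, called the Klk1 cluster here. Dll1 was 0.980, 0.887 and 0.731 in the first and 0.261, 0.248 and 0.202 in the Ido1 cluster. The gap was nearly the same size in AOS 0 (3.76), B + A 0 (3.58) and B + A 10 (3.62), and 3.67 in sum (2.89 to 4.71). Spdef was 1.83 times higher in the Ccl9 cluster (1.59 to 2.10), Gfi1 1.95 times (1.19 to 3.25) and Sox4 3.65 times (1.74 to 8.36). Atoh1 was not separated between them: 2.69, 2.26 and 1.99 against 2.48, 1.75 and 2.30, a ratio of 1.08 (0.975 to 1.19). Hes1 had a ratio of 0.995 (0.702 to 1.41).

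Bhlha15 and Neurog3 were found in the Ccl9 cluster and not in the Ido1 cluster. Bhlha15 had 18, 15 and 17 UMIs in the 3 libraries of the first and 0 in the second. The ratio was 20.3 when the second is set at a floor of 3 UMIs, and its exact interval began at 15.9. Neurog3 had 15 UMIs against 0, 11 of them in B + A 0. Its ratio was 6.08 with the same floor, and the exact interval began at 4.36. The Klk1 cluster lay between the others in Dll1 (0.522) and Bhlha15 (0.0392). Set against cycling secretory-like cells, the Ccl9 cluster had more Atoh1 (1.65, 1.48 to 1.85), Spdef (1.66, 1.45 to 1.89), Dll1 (1.29, 1.09 to 1.53) and Bhlha15 (1.96, 1.24 to 3.13), and less Hes1 (0.573, 0.419 to 0.776), Notch1 (0.114, 0.0224 to 0.362) and Sox4 (0.365, 0.235 to 0.553). Dll1 was higher in the Ccl9 cluster in all 3 libraries (1.30, 1.39 and 1.28), and the ratios of Bhlha15 were 3.34, 1.08 and 2.14. Dll4 and Gfi1 did not differ beyond counting error, each with a ratio of 1.06.

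**Figure D4:**
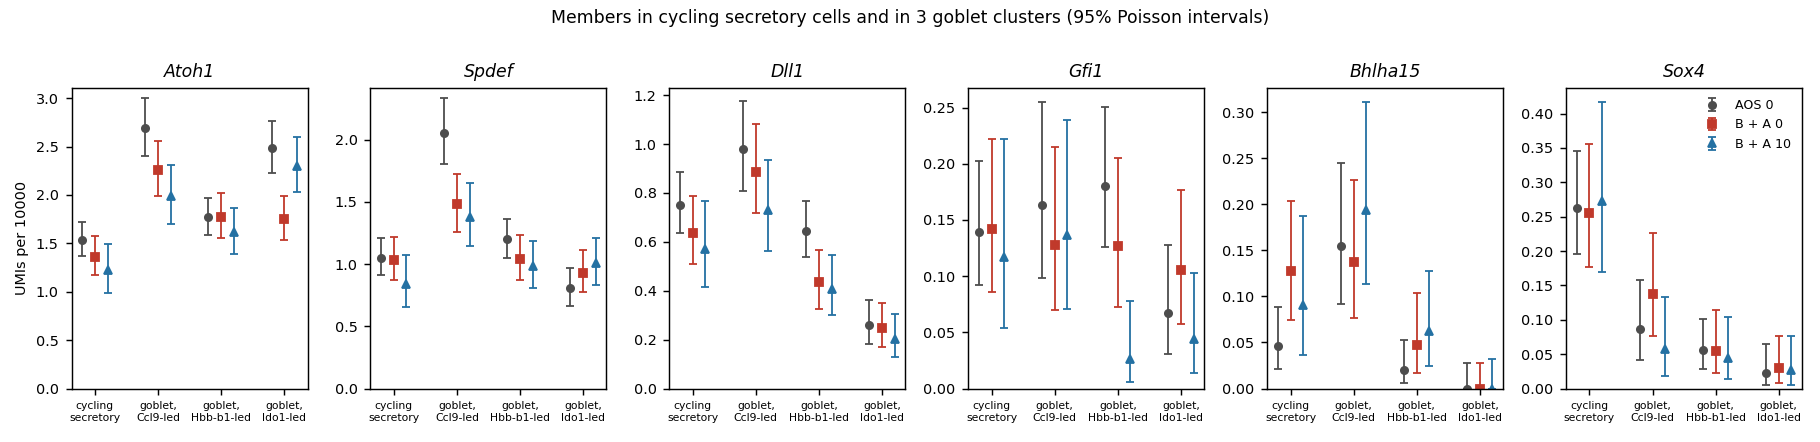
Level of Atoh1, Spdef, Dll1, Gfi1, Bhlha15 and Sox4 (UMIs per 10000 UMIs) in cycling secretory-like cells and in the 3 goblet-like clusters, with a point for each library and its 95% Poisson interval (the Klk1 cluster is named Hbb-b1-led). Dll1, Spdef and Bhlha15 are lower in the Ido1 cluster than in the Ccl9 cluster, while Atoh1 overlaps between them.

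Dll1 was also found outside the crypt. Against stem-like cells, none of 8 genes was 2-fold higher in later enterocytes (background 20%) and 6 were lower (background 31.2%), with Dll1 (1.08, 0.866 to 1.36) and Dll4 (1.41, 0.856 to 2.46) between. Later enterocytes had 0.205 of Dll1, 2.15 times the early enterocyte-like level (1.62 to 2.91), and held 24.8% of all Dll1 UMIs. Among their clusters, the Slc5a12 cluster of absorptive villus cells had 0.315, 0.267 and 0.398, and the ileal Fabp6 cluster had 0.0553, 0.0796 and 0.136. Every library of the first stood above every library of the second, and the ratio was 4.04 (2.93 to 5.66). Dll4 differed in the same direction between these clusters, 1.98 times (1.20 to 3.31), but not in B + A 10 (0.698). Atoh1 (0.892, 0.491 to 1.59) and Hes1 (0.833, 0.589 to 1.17) did not differ beyond counting error.

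In single cycling secretory-like cells, the share with Hes1 did not separate cells with and without Atoh1 at this depth. After thinning to 1000 UMIs, 1 of 44 cells with Atoh1 had Hes1 (2.27%) and 10 of 350 without (2.86%), a difference of -0.584 percentage points (-3.57 to 9.04, Newcombe interval) that was 0.789 points without AOS 0. At 2000 UMIs the shares were 5.83% and 6.53%. Spdef was found with Atoh1 in 27.2% of cells and without it in 15.1% at 2000 UMIs, a difference of 12.1 points (3.15 to 22.1), but in 9.09% and 11.7% at 1000 UMIs. The order of the Spdef shares thus turned with the depth.

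A wider list of 64 Notch and fate genes put the 10 genes in context; 60 of them had a row and 45 had at least 30 UMIs. Of these 45, 14 were highest in enteroendocrine-like cells, 11 in early enterocyte-like, 8 in stem-like, 7 in cycling secretory-like, 5 in goblet-like and 0 in Paneth-like cells. These counts describe the make-up of the list, since no such share was taken over all genes. Of the 14, 9 were among its secretory and endocrine fate factors, and the Paneth-like count stands on the scale that defensins lower. Among the 36 with at least 30 UMIs in cycling secretory-like and stem-like cells together, 9 were at least 2-fold higher and 3 lower (5.96% and 4.78% of all genes), with a median log2 ratio of 0.09 beside -0.13 for all genes. The 9 included Creb3l1 (14.6 times) and Creb3l4 (11.7 times), membrane-bound factors of the secretory pathway, Cbfa2t3 (16.4 times), a corepressor, and Klf4 (6.65 times), a goblet factor. The 3 lower were the receptor Notch2 (0.418), Dtx4 (0.402) and Mycl (0.327). In goblet-like cells 8 of 37 were higher and 9 lower, beside 9.27% and 41.1% of all genes. The lower genes there included Notch2 (0.0300), the Notch target Nrarp (0.0596), Rbpj (0.416) and Sox9 (0.225). In enteroendocrine-like cells 12 of 40 were higher and 4 lower, beside 9.91% and 9.07% of all genes. In early enterocyte-like cells 1 of 34 was higher and 11 lower (11.1% and 16.5% of all genes). In Paneth-like cells 2 of 34 were higher and 24 lower (2.06% and 84.2% of all genes), on the scale that defensins lower. This list was chosen with earlier results of these data known.

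Across the 18 sums of 6 classes in 3 libraries, and among 6904 genes, the gene most like Atoh1 was Spdef (Pearson r = 0.983 on log2 values), followed by Creb3l4 (0.981) and Galnt5 (0.978), a mucin glycosyltransferase. Spdef was most like Ern2 (0.987), a goblet stress sensor, then Atoh1 and Tpsg1 (0.980). Dll1 was most like Sec11c (0.931), Tmed9 (0.927) and Nans (0.920), genes of protein export and sialic acid synthesis. Sox4 was most like Cd44 (0.972), Cnn3 (0.952) and Umps (0.943), and Hes1 was most like Gstm5 (0.95), Sdc4 (0.948) and Cct5 (0.944). These values describe sums that share libraries and depth. The other 5 genes had under 300 UMIs in the 6 classes and were not compared.

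Most gene and class pairs stayed within 1.5-fold between libraries. The share past it was below that of all genes from AOS 0 to B + A 0. It was above that of all genes from B + A 0 to B + A 10 (22.2%) and from AOS 0 to B + A 10 (26.7%). Over classes and genes with at least 30 UMIs in the 2 libraries compared, 1 of 29 pairs was past 1.5-fold from AOS 0 to B + A 0, while 15.2% of all gene and class pairs were. From B + A 0 to B + A 10 it was 6 of 27 (1 higher and 5 lower; background 12.7%), and from AOS 0 to B + A 10 it was 8 of 30 (4 higher and 4 lower; background 18.8%). The counting interval of the ratio left out 1 for 4, 4 and 8 pairs, a count for which no share over all genes was taken. With 1 library per group a difference between libraries cannot be told apart from a difference between the mice or preparations, and depth differs with the library. In cycling secretory-like cells none of the genes with enough UMIs was past 1.5-fold in any of the 3 comparisons, where 12.2%, 13.3% and 19.6% of all genes were. Notch1, Neurog3 and Bhlha15 had too few UMIs there for all 3 comparisons and Gfi1 for that from B + A 0 to B + A 10. Bhlha15, with 9, 17 and 7 UMIs, was at 0.0464, 0.127 and 0.0909.

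Neurog3 in enteroendocrine-like cells was the pair past the threshold in B + A 0. Its levels of 1.78, 0.492 and 0.474 gave ratios to AOS 0 of 0.276 (0.121 to 0.554) in B + A 0 and 0.266 (0.127 to 0.505) in B + A 10. Both busulfan libraries were thus below AOS 0, in which 51 of the 70 UMIs came from 5 cells. Sox4 in the same class went from 1.91 to 1.31 and 0.862, a ratio of 0.451 (0.261 to 0.747) from AOS 0 to B + A 10 and 0.658 (0.345 to 1.24) from B + A 0 to B + A 10. In cells without a Neurog3 UMI the ratio from AOS 0 to B + A 10 was 0.598 (0.280 to 1.20). The background share in enteroendocrine-like cells was high, 25.9% from AOS 0 to B + A 0 and 30.6% from AOS 0 to B + A 10. The 14 goblet markers there summed to 71.3, 146 and 195 per 10000 UMIs, with 2, 0 and 0 of them at 0, and the 9 T cell markers to 2.45, 2.95 and 11.6, with 1, 0 and 0 at 0. Their part in the result was not tested.

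Goblet-like cells of both busulfan libraries had slightly less of several genes. From AOS 0 to B + A 0, Atoh1 was at 0.858 (0.778 to 0.946), Spdef at 0.868 (0.763 to 0.986) and Dll1 at 0.813 (0.671 to 0.983), and from AOS 0 to B + A 10 at 0.884 (0.798 to 0.979), 0.847 (0.739 to 0.969) and 0.687 (0.554 to 0.848). The 9 T cell markers in goblet-like cells summed to 0.702, 2.99 and 3.62 per 10000 UMIs and the 15 mature enterocyte markers to 23.9, 43.5 and 45.4, with none at 0, and 6 markers of other blood cells to 0.0203, 3.98 and 0.0223, with 4, 2 and 4 at 0. Their part in the result was not tested. Each gene was lower by less than 1.5-fold, and the background share past 1.5-fold in goblet-like cells was 10.7% and 15.9%. Gfi1 was past 1.5-fold, at 0.449 (0.257 to 0.753) from AOS 0 to B + A 10 and 0.534 (0.298 to 0.926) from B + A 0 to B + A 10 (background 9.54%). The difference lay mostly in the Klk1 cluster, with 35, 16 and 3 UMIs (0.148 from AOS 0 to B + A 10, 0.0290 to 0.468), while the Ccl9 cluster had 19, 14 and 12. Hes1 in goblet-like cells was at 0.649 (0.435 to 0.959) from B + A 0 to B + A 10. Bhlha15 in goblet-like cells, at 1.54 (0.829 to 2.89) from AOS 0 to B + A 10, and Sox4, at 0.588 (0.277 to 1.19) from B + A 0 to B + A 10, had intervals that held 1. So did Atoh1 in stem-like cells, at 1.58 (0.788 to 3.22) from AOS 0 to B + A 10, where the 14 goblet markers summed to 30.7, 67.1 and 78.7 per 10000 UMIs with none at 0, and their part in the result was not tested.

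Paneth-like cells had the pairs of opposite direction. Hes1 was 0.123, 0.132 and 0.0442, from 30, 58 and 9 UMIs, a ratio of 0.334 (0.145 to 0.678) between the last 2. Dll1 was 0.0657, 0.0456 and 0.113, a ratio of 2.47 (1.30 to 4.75), and 2.11 (1.06 to 4.21) without called doublets. The 15 mature enterocyte markers in Paneth-like cells summed to 19.3, 57.2 and 45.5 per 10000 UMIs and the 9 T cell markers to 0.719, 4.89 and 5.60, with none at 0, and their part in the result was not tested. The median gene in Paneth-like cells moved by -0.16 on the log2 scale from B + A 0 to B + A 10 and by 0.26 from AOS 0 to B + A 0, and 18.4% of all genes were past 1.5-fold in the first of these (25.7% from AOS 0 to B + A 10). Bhlha15 was level in Paneth-like cells, with a ratio of 1.18 (0.765 to 1.86) from AOS 0 to B + A 0. Over all cells it was 2.23 times higher in B + A 0 (1.66 to 3.02; background 6.91%) and at 0.715 from B + A 0 to B + A 10 (0.530 to 0.958; background 5.61%). Paneth-like cells were 2.46%, 5.35% and 3.01% of the 3 libraries. In such sums more cells of a class and more RNA per cell cannot be told apart.

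Enterocytes of B + A 10 had the most Dll1 per 10000 UMIs, though not per cell. Per 100 cells, Dll1 had 5.90, 7.82 and 6.21 UMIs in early enterocyte-like cells and 12.1, 10.1 and 9.45 in later enterocytes, in libraries of unequal depth. Early enterocyte-like cells had 0.0679, 0.0990 and 0.140, a ratio of 2.06 (1.05 to 4.11) from AOS 0 to B + A 10, and 1.94 (0.960 to 3.91) without called doublets (background 15.6%). Later enterocytes had 0.176, 0.166 and 0.283, with a ratio of 0.941 (0.735 to 1.20) from AOS 0 to B + A 0 (background 7.95%). In these B + A 10 stood 1.61 times above AOS 0 (1.31 to 1.98) and 1.71 times above B + A 0 (1.35 to 2.18), past the 1.5-fold that 10.9% and 6.5% of all genes in later enterocytes passed in either direction. B + A 10 was above both other libraries in 5 of 5 later enterocyte clusters. Dll4 in later enterocytes was 0.0548, 0.0517 and 0.0403, with a ratio of 0.735 (0.450 to 1.18) from AOS 0 to B + A 10.

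**Figure D5:**
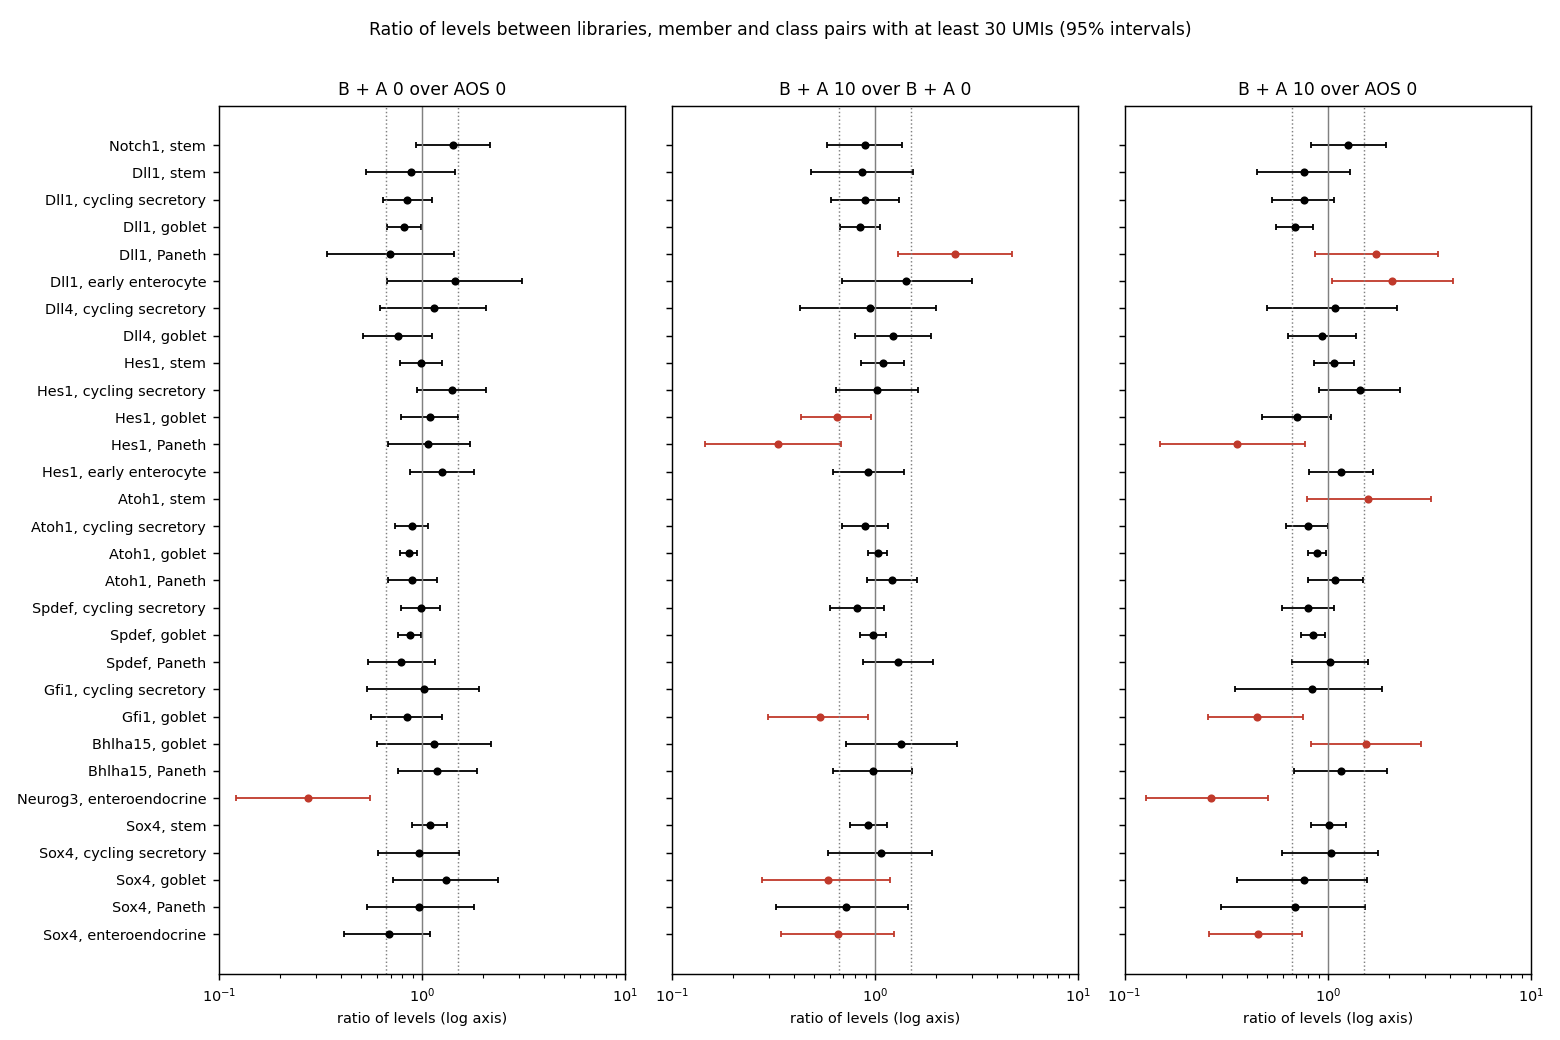
Ratio of levels between libraries, with exact 95% intervals on a log axis, for each gene and class with at least 30 UMIs in the 2 libraries. Most pairs lie between 1.5-fold lower and higher, and Neurog3 and Sox4 in enteroendocrine-like, Gfi1 in goblet-like and Hes1 in Paneth-like cells lie below 1.5-fold lower (red) when B + A 10 is set against AOS 0.

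The wider list gave 27 of 150 pairs past 1.5-fold from AOS 0 to B + A 0 (18%), 14 of 131 from B + A 0 to B + A 10 (10.7%) and 24 of 139 from AOS 0 to B + A 10 (17.3%), shares close to the background of all genes.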

How the data were processed

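Single-cell libraries of the small intestine (10x 3′ chemistry) were aligned by the authors with Cell Ranger 2.2.0 to mm10. Cells with under 200 genes and genes in under 3 cells were removed by the authors with Seurat. The deposited values are the natural log of 1 plus UMIs per 10000, from which whole UMIs were recovered: 100% of 24333763 values above 0 lay within 0.01 of a whole UMI. Median depth per cell was 3505 to 7371 UMIs. No mitochondrial gene is listed.

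Libraries were joined with Seurat 5.3.0 (R 4.3.3; 2000 variable genes without the 10 genes and the wider list, 20 dimensions, 20 neighbours, resolution 0.8), and clusters were named from marker lists. Tuft cells were set apart after seeing the data. Of 2 unnamed clusters, 1 had 61.7% called doublets and 1, of 64 cells, had T cell and goblet genes together. The 5% of cells with the highest Scrublet score in each library (scanpy 1.11.5) were called doublets, since the automatic threshold called 15 cells, and were kept. Levels are summed UMIs per 10000 with exact Poisson intervals, ratios have exact conditional binomial intervals, and shares were taken after thinning cells to 1000 UMIs (scipy 1.17.1). Intervals, like limits from a count of 0 (3 UMIs), cover counting error only. With 1 library per group nothing was tested, and a fold of 2 between classes or 1.5 between libraries, with at least 30 UMIs in the pair, served as the rule. The scripts were tested on simulated data. All 10 genes are named; other genes are named where a result turns on them, after their values were seen, or by likeness (the 3 highest Pearson r for genes with at least 300 UMIs). Members and lists were chosen with earlier results of these data known. Alternatives were other resolutions, clustering without joining, cell filters, doublets left out, marker scores per cell, other totals and each library left out.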

Additional observations from a re-analysis of the deposited data

Results flagged for a closer look

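Dll1 differed in direction between classes from AOS 0 to B + A 10: its level was 2.06 times higher in early enterocyte-like cells and at 0.687 of AOS 0 in goblet-like cells. Without called doublets the interval of the early enterocyte-like ratio held 1. Per 100 cells, Dll1 had 5.90 UMIs in AOS 0 and 6.21 in B + A 10 in early enterocyte-like cells. In goblet-like cells it had 45.7 and 15.7, in libraries of unequal depth. The difference between the classes was not tested, since each group is 1 library.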

How the results depend on the processing

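No paired analysis was possible because each group is 1 library and no result comes from a test. Of 95 alternative values for the results that answer a comparison, 74 stayed within the counting interval of the reported value (counts, within 1.5 times), 19 moved and 2 turned direction. The log2 ratio of Atoh1 in cycling secretory-like over stem-like cells was 3.98, and 3.48 at resolution 1.5 and 4.47 without called doublets; that of Dll1 was 1.84, and 2.22 at resolution 0.4 and 1.34 at resolution 1.5. For Hes1 in stem-like over goblet-like cells it was 2.30, and 2.05 at resolution 0.4 and 2.61 with ribosomal, mitochondrial and defensin genes left out of the total. For Sox4 in enteroendocrine-like over stem-like cells it was 0.32, and 0.73 at resolution 0.4, -0.14 at resolution 1.5 and 0.0042 with the 10 genes and the wider list kept for clustering. Leaving out each library in turn gave -0.18 to 0.53 for Sox4 (the lowest without AOS 0), 3.78 to 4.33 for Atoh1, 1.81 to 1.88 for Dll1 and 2.13 to 2.43 for Hes1. The 1 gene and class pair past 1.5-fold from AOS 0 to B + A 0 became 3 without joining, 4 at resolution 0.4, 5 with marker scores per cell, 5 with means over cells, 0 of 16 with at least 100 UMIs and 10 of 44 with at least 10 UMIs. It became 2 with tuft cells kept and 2 without shared barcodes, alternatives chosen after seeing the data, as were thinning to 2000 UMIs and the splits without called doublets. The 6 pairs from B + A 0 to B + A 10 became 2 at a fold of 2, 1 of 12 with at least 100 UMIs and 13 of 43 with at least 10 UMIs. The cause was not tested. Of 688 other values 637 stayed, 49 moved and 2 turned: Spdef in Paneth-like over stem-like cells at resolution 1.5 (-0.0318) and Atoh1 in stem-like cells from AOS 0 to B + A 10 with marker scores per cell (-0.0430). For the 45 results past 2-fold, 562 of 563 alternatives kept the direction. Depth limits Gfi1, Neurog3 and Bhlha15 most, with 203 to 273 UMIs in all cells.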
